A study of Danio rerio with 6 samples.

Results

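Integrins are cell surface receptors made of one alpha and one beta subunit, which hold cells to the extracellular matrix, to plasma proteins or to other cells. Blood cells use a particular set of them. In mammals, beta 2 with alpha M serves adhesion and uptake by myeloid cells, alpha E with beta 7 holds lymphocytes in epithelia, alpha 4 with beta 1 keeps progenitors in the marrow, and alpha IIb with beta 3 is the fibrinogen receptor of platelets. In zebrafish, whose platelets are nucleated thrombocytes, itga2b (alpha IIb, CD41) is a usual marker of thrombocytes and of early haematopoietic progenitors.

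The integrin genes were read from bulk RNA-seq of kidney marrow (KM), the blood-forming tissue of adult zebrafish. The Tg fish were Tg(drl:hoxa9;hsp70:meis1), in which the draculin element, active in all cells of lateral plate mesoderm origin, drives myc-tagged hoxa9, and a heat shock promoter drives meis1b with GFP in any cell. The WT fish were of the AB strain. Both genotypes were 5 months old by the labels, although the results text of the study gives a younger age, and the sources used here do not say when the sequenced fish were heat shocked. Each sample pooled blood cells of 3 kidneys, with 3 Tg and 3 WT samples (called pools below). Members were the rows of the count table whose gene name begins as an integrin alpha or beta gene name, which gave 36 of 32057 rows. Of these, 34 are subunit genes (22 alpha and 12 beta) and 2, ITGB1BP1 and itgb3bp, are genes of proteins that bind integrin tails, described apart. The name table writes many zebrafish genes under the symbol of their human match (in capitals), so that 4 rows are named ITGB1, 2 ITGB3 and 2 ITGA11, and rows of one name are told apart by their Ensembl ID. Which ITGB3 row is itgb3a and which itgb3b was not resolved. Genes of itgal, itgax, itgad and itga7 were not analysed here.

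Total counts were 50767535 to 64055374 in Tg and 53620374 to 64888212 in WT. Levels are given as CPM, the count of a gene per unit of the library total after TMM scaling, and a count of 0 leaves room for 0.0457 to 0.0606 CPM, taking 3 counts as the limit for counting error. Tg against WT was tested for 20123 genes with edgeR's quasi-likelihood test, and a gene was said to have risen or fallen at an adjusted p under 0.05 (Benjamini-Hochberg over all genes tested). DESeq2, the tool of the study, was run on the same counts, and on simulated counts 82 of its 212 calls were false. The simulation changed far fewer genes than the 2077 that DESeq2 called in the real counts. That share therefore cannot be carried over to its calls here. Of the genes the transgenes carry, the row named MEIS1 (meis1a has a row of its own) rose, at 61.9 ± 13.3 CPM in Tg against 24.2 ± 2.70 CPM in WT (SD, n = 3 each, edgeR adjusted p = 0.0418). All marker lists of blood cells were detected, as were kidney tubule markers, whose summed level was 1807 to 2166 CPM in Tg and 2562 to 6353 CPM in WT. In such bulk samples, fewer cells of a type and less RNA per cell cannot be told apart. CPM also grows with transcript length, so levels are compared between genotypes and not between genes.

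Of the 34 subunit genes, 32 were abundant enough to test. In Tg, 1 rose, a row named ITGB3, and 1 fell, a row named ITGB1, and the other 30 did not pass. Over the whole table the same test called 0.224% of genes higher and 0.373% lower. At an unadjusted p under 0.05, 5 subunit genes were higher, against 9.07% of all genes, and 6 were lower, against 10.8%. By DESeq2, which gave an adjusted p for 33 subunit genes, 4 were higher (12.1%, against 2.96% of all genes) and 4 lower (12.1%, against 6.55%). The higher ones were ITGB3, itga2b, ITGAV and itgae.2. The lower ones were ITGB1, itga3a, ITGA6 and ITGA11. The Tg pools lay all above the WT pools for 6 of the 32 (18.8%, against 14.0% of all genes tested) and all below for 8 (25.0%, against 14.1%). The median log2 fold change was -0.16 over the subunits and 0.01 over all genes tested.

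Grouped by ligand and cell, the thrombocyte subunits had a median log2 fold change of 0.78 (3 tested), the leukocyte subunits 0.42 (7 tested), the fibronectin and RGD-binding subunits -0.17 (11 tested), the collagen-binding subunits -0.65 (5 tested) and the laminin-binding subunits -1.02 (6 tested). No test was made of these medians, and that of the leukocyte subunits was 0.06 without Tg replicate 1 and 0.13 without WT replicate 3. Leaving out 1 pool gave -1.39 (without Tg replicate 1) to -0.71 (without WT replicate 3) for the collagen-binding subunits. The fits without WT replicate 1 or any Tg replicate took in a further ITGA11 row, however. On the 5 rows tested with all pools, the median was -1.27 (without Tg replicate 1) to -0.19 (without WT replicate 1). For the fibronectin and RGD-binding subunits the range was -0.39 (without WT replicate 1 or 2) to -0.26 (without Tg replicate 2). The thrombocyte subunits took 5.9 to 8.4% of all subunit counts in Tg and 3.4 to 4.4% in WT. For the laminin-binding subunits the shares were 0.8 to 1.2% in Tg and 1.6 to 3.0% in WT, so neither set of shares overlapped between genotypes. The leukocyte subunits held 69.8 to 73.8% in Tg and 73.2 to 77.8% in WT.

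**Figure D1:**
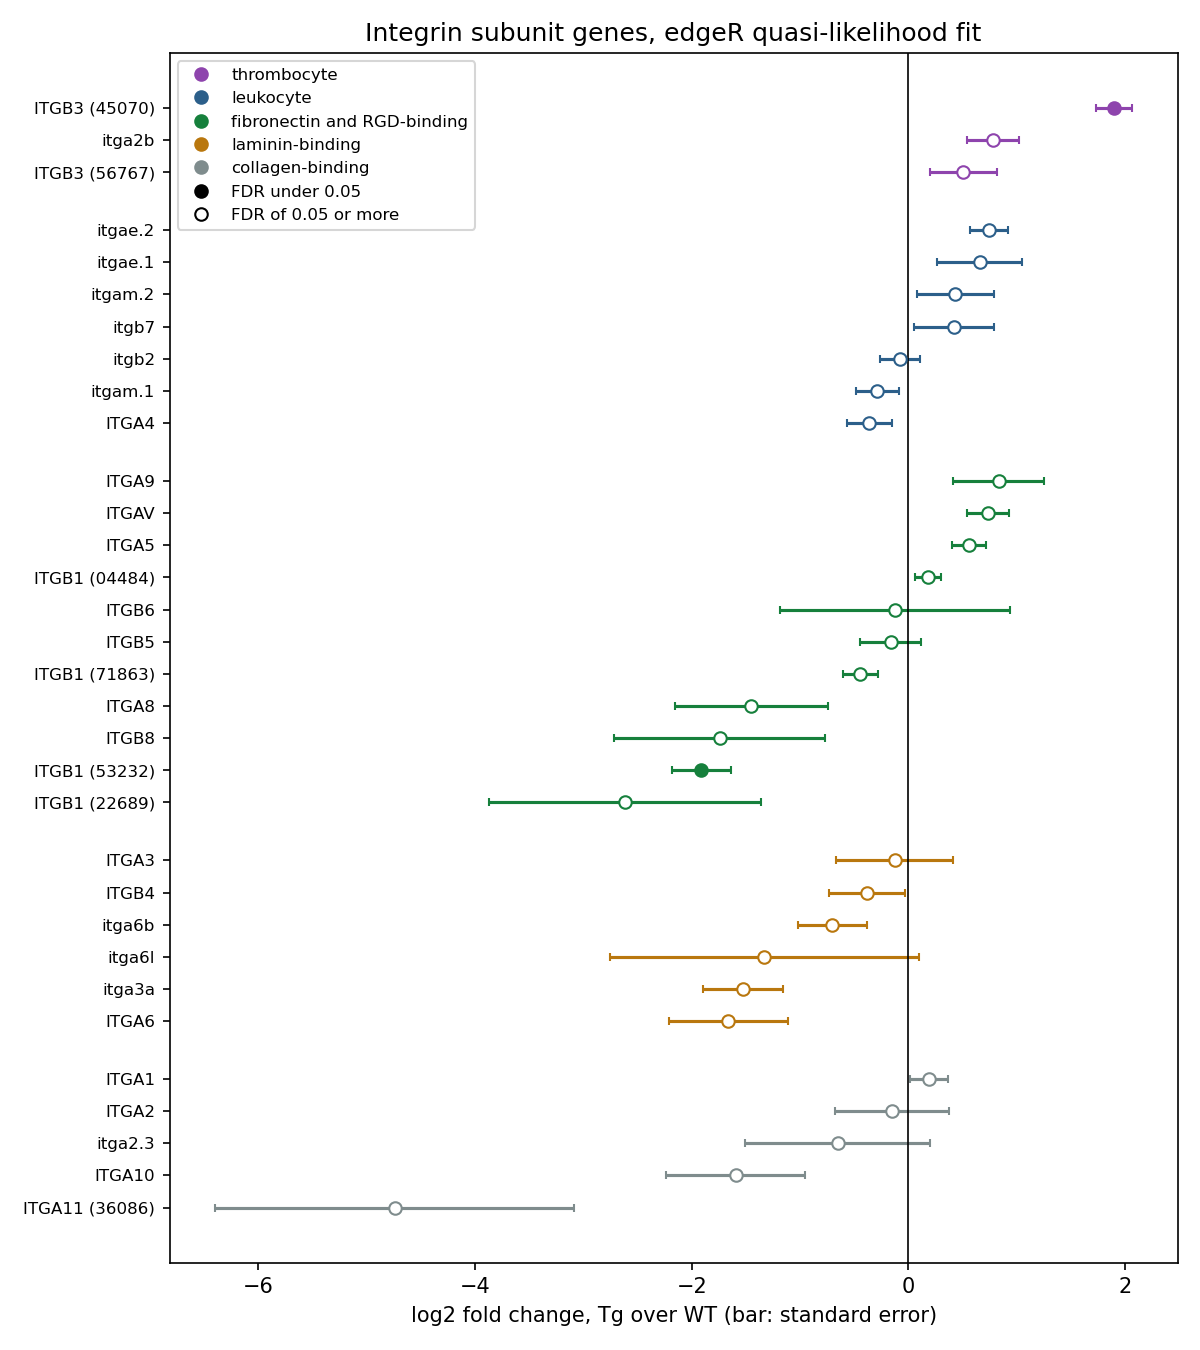
Log2 fold change of Tg over WT (horizontal axis, bars are the standard error) for the 32 subunit genes tested, grouped by ligand and cell. Filled points mark an adjusted p under 0.05 (ITGB3 at 1.90 and ITGB1 at -1.91), and the digits in brackets end the Ensembl ID of rows that share a name. The lowest point, ITGA11, rests on 4, 0 and 0 counts in Tg and its fold is not a measured size.

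The ITGB3 row ENSDARG00000045070 rose in Tg. Beta 3 is the partner of alpha IIb on thrombocytes and of alpha V on many other cells. It stood at 32.5, 30.8 and 30.8 CPM in Tg pools 1, 2 and 3, against 7.24, 9.66 and 8.37 CPM in WT pools 1, 2 and 3. The 3 Tg pools were nearly level and each was more than the highest WT pool by far more than the spread within either genotype. The means were 31.4 ± 1.01 CPM in Tg and 8.42 ± 1.21 CPM in WT (SD, n = 3 each), a 3.72-fold difference (log2 fold change 1.90, standard error 0.16, edgeR adjusted p = 0.0198). Without Tg replicate 2 or 3 the adjusted p was 0.104 and 0.102, and without WT replicate 2 or 3 it was 0.0517 and 0.0737, with log2 fold changes between 1.80 and 2.01 whichever pool was left out.

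The other ITGB3 row, ENSDARG00000056767, overlapped between genotypes. It read 40.2, 69.8 and 58.0 CPM in Tg and 51.5, 41.8 and 24.8 CPM in WT. Its log2 fold change was 0.51 (standard error 0.30, edgeR adjusted p = 0.408). The first row therefore took 44.7, 30.6 and 34.7% of the counts of the 2 ITGB3 rows in Tg, against 12.3, 18.8 and 25.2% in WT. Summed over both rows, ITGB3 was 87.4 ± 14.0 CPM in Tg and 47.8 ± 13.2 CPM in WT (SD, n = 3 each), with every Tg pool above every WT pool.

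Their alpha partner itga2b was higher in every Tg pool than in any WT pool but did not pass edgeR's test. It read 51.5, 65.4 and 94.5 CPM in Tg and 41.6, 34.6 and 47.2 CPM in WT. Tg replicate 3 was the highest and Tg replicate 1 lay close to the WT range. The log2 fold change was 0.78 (standard error 0.24, edgeR adjusted p = 0.151, DESeq2 adjusted p = 0.0362), and 0.51 without Tg replicate 3.

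Other thrombocyte genes were set beside this group. Of 12 rows on the list of thrombocyte markers, which holds no integrin but shares RASGRP2 with the adaptors, none passed edgeR's test (3 higher and 0 lower at an unadjusted p under 0.05, 0 by DESeq2), and their median log2 fold change was 0.20. The Tg pools lay all above the WT pools for 4 of the 12 (33.3%, against 14.0% of all genes tested) and all below for 0. These were f13a1b and F13A1 (ENSDARG00000045453), genes of the clot-stabilising factor XIII, the transcription factor NFE2 and RASGRP2, with log2 fold changes of 0.49, 0.49, 0.24 and 0.37. The other 8 overlapped. The thrombopoietin receptor mpl read 17.9, 17.2 and 19.8 CPM in Tg and 11.4, 12.9 and 18.8 CPM in WT, overlapping between genotypes. The von Willebrand receptor subunit gp9 read 13.5, 28.5 and 23.1 CPM in Tg and 20.8, 20.0 and 29.3 CPM in WT, and its partner GP1BB 43.6, 60.8 and 67.6 CPM in Tg and 52.8, 38.7 and 69.7 CPM in WT. Both overlapped, with log2 fold changes of -0.11 and 0.09. The summed level of the list was 961 to 1311 CPM in Tg and 786 to 973 CPM in WT. Most of each sum came from that F13A1 row (429 to 533 CPM in Tg, 268 to 417 CPM in WT) and f13a1b (246 to 388 and 195 to 243 CPM). In the same pools 6 of 15 rows on the list of stem and progenitor markers rose, against 0.224% of all genes tested. The progenitor antigen cd34 was among them, at 265 ± 25.0 CPM in Tg and 107 ± 19.3 CPM in WT (SD, n = 3 each). That list includes MEIS1, which rose and which a transgene carries. It was also drawn up with gata2b, gfi1ab and angpt1 on it, which the study had reported as upregulated in these data. Its rise was therefore partly known beforehand. The summed level of that list, MEIS1 included, was 1151 to 1343 CPM in Tg and 625 to 699 CPM in WT. The part of either cell type in the rise of ITGB3 was not tested.

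**Figure D2:**
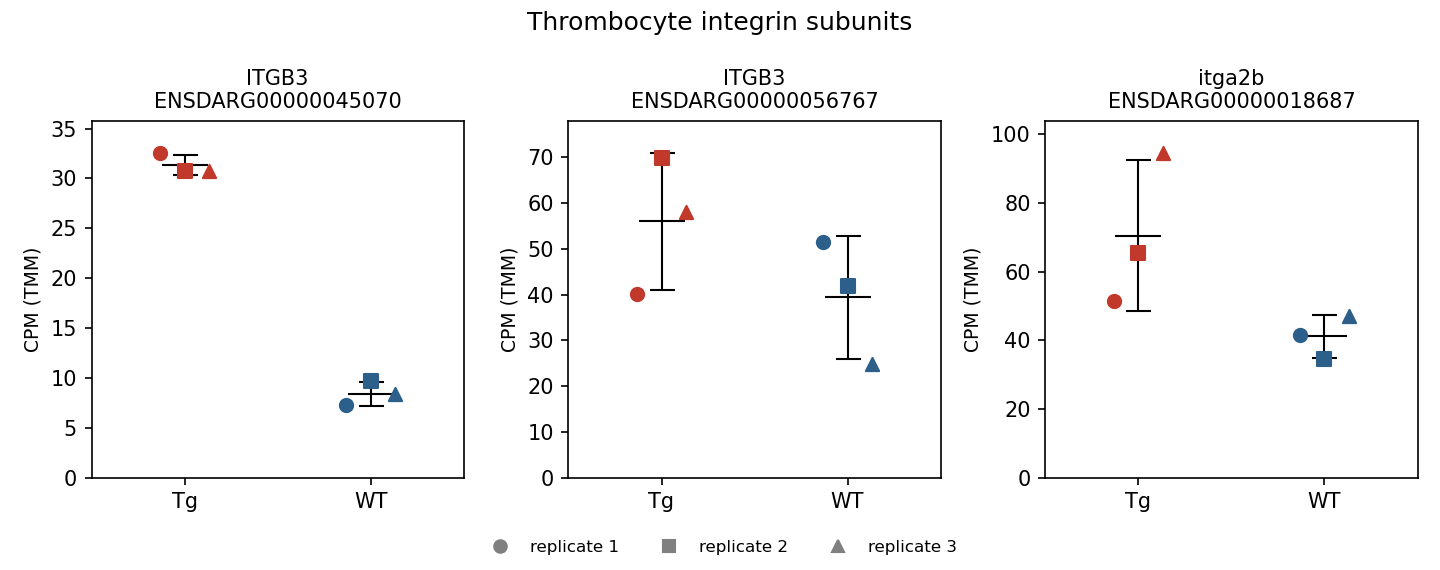
CPM (vertical axis, from 0) of the 3 thrombocyte subunit rows in each Tg pool (left) and WT pool (right), with mean and SD as bars. For ITGB3 (ENSDARG00000045070) the Tg pools sit at 30.8 to 32.5 CPM and the WT pools at 7.24 to 9.66 CPM, while the other ITGB3 row overlaps between genotypes.

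Of the 7 leukocyte subunits none passed edgeR's test (1 higher and 0 lower at an unadjusted p under 0.05, 1 higher by DESeq2). The Tg pools lay all above the WT pools for 1 of the 7 (14.3%, against 14.0% of all genes tested). They lay all below for 0 (against 14.1%). The leukocyte beta subunit itgb2, with which alpha M pairs, read 865, 1322 and 898 CPM in Tg and 1060, 1169 and 1026 CPM in WT. Tg replicate 2 was above all other pools and the other 2 Tg pools were below all WT pools. The means were 1028 ± 255 CPM in Tg and 1085 ± 74.7 CPM in WT (SD, n = 3 each), and the log2 fold change was -0.08 (standard error 0.18, edgeR adjusted p = 0.859), positive without Tg replicate 1 or without Tg replicate 3. Of the 2 alpha M genes, itgam.1 had 337 ± 44.8 CPM in Tg and 411 ± 103 CPM in WT, and itgam.2 had 27.9 ± 9.18 CPM in Tg and 20.7 ± 7.71 CPM in WT (SD, n = 3 each). Both overlapped between genotypes (edgeR adjusted p = 0.481 and 0.552). The share of itgam.2 in the counts of the pair was 9.4, 7.1 and 6.1% in Tg and 5.6, 4.9 and 3.7% in WT, which did not overlap. Together itgb2 and itgam.1 held 54.4 to 61.0% of all subunit counts in Tg and 61.8 to 66.6% in WT. On the list of neutrophil markers (10 tested) none passed edgeR's test (3 higher and 1 lower at an unadjusted p under 0.05). By DESeq2 2 were higher (20%, against 2.96% of all genes) and 0 lower. The Tg pools lay all above the WT pools for 3 of the 10 (30%, against 14.0% of all genes tested) and all below for 1 (10%, against 14.1%). The summed levels of this list were 15411 to 26281 CPM in Tg and 11335 to 20047 CPM in WT. Most of each sum came from lyz (9111 to 15847 CPM in Tg, 7286 to 12829 CPM in WT) and npsn (5122 to 8701 and 2960 to 5930 CPM). Of 19 macrophage markers tested 1 rose, csf1rb, and none fell (1 higher and 4 lower at an unadjusted p under 0.05, 1 and 3 by DESeq2). Their median log2 fold change was -0.57, and 16 were negative, against 9875 of all 20123 genes tested. The Tg pools lay all below the WT pools for 5 of the 19 (26.3%, against 14.1% of all genes tested) and all above for 1. Several of these rows share the name MFAP4. The study had reported csf1rb as higher and mpeg1, also on the list, as lower in these data. The summed levels of the macrophage markers were 3559 to 4577 CPM in Tg and 3999 to 6004 CPM in WT, and the part of either cell type in the leukocyte values was not tested.

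The alpha E genes were on the higher side. The itgae.2 gene read 90.3, 125 and 113 CPM in Tg and 68.5, 73.7 and 54.3 CPM in WT, so that every Tg pool was above every WT pool. Its log2 fold change was 0.74 (standard error 0.17, edgeR adjusted p = 0.101, DESeq2 adjusted p = 0.00703). Its neighbour in name, itgae.1, read 53.3, 129 and 129 CPM in Tg and 40.1, 81.1 and 76.3 CPM in WT. In both genotypes replicate 1 was the lowest pool, and the genotypes overlapped (log2 fold change 0.66, standard error 0.39, edgeR adjusted p = 0.408). The beta 7 subunit, their partner in mammals, was at 18.8 ± 9.06 CPM in Tg and 14.1 ± 1.32 CPM in WT (itgb7, SD, n = 3 each, edgeR adjusted p = 0.578). The Tg pools of itgb7 were 27.2, 20.0 and 9.23 CPM, on both sides of the WT range. ITGA4, which pairs with beta 1 and beta 7 on lymphocytes and progenitors, had 61.4 ± 9.45 CPM in Tg and 78.7 ± 18.0 CPM in WT and overlapped (edgeR adjusted p = 0.385). No T and NK cell marker of 14 tested and no B cell marker of 11 tested passed (4 and 3 higher and none lower at an unadjusted p under 0.05, and 2 and 2 higher by DESeq2). The Tg pools lay all above the WT pools for 5 of the 14 T and NK cell markers (35.7%, against 14.0% of all genes tested). The T cell coreceptor gene cd8a read 6.35, 5.09 and 10.5 CPM in Tg and 2.36, 0.878 and 0 CPM in WT (edgeR adjusted p = 0.298). Its partner cd8b read 2.94, 2.38 and 4.87 CPM in Tg and 0.798, 0.233 and 0.122 CPM in WT (log2 fold change 3.14, standard error 0.80, edgeR adjusted p = 0.112, DESeq2 adjusted p = 0.00213). The others were nkl.4, TOX and lck, with log2 fold changes of 1.40, 0.59 and 0.46. The summed T and NK cell level was 175 to 203 CPM in Tg and 120 to 184 CPM in WT, which overlapped, and the part of these cells in the alpha E values was not tested.

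**Figure D3:**
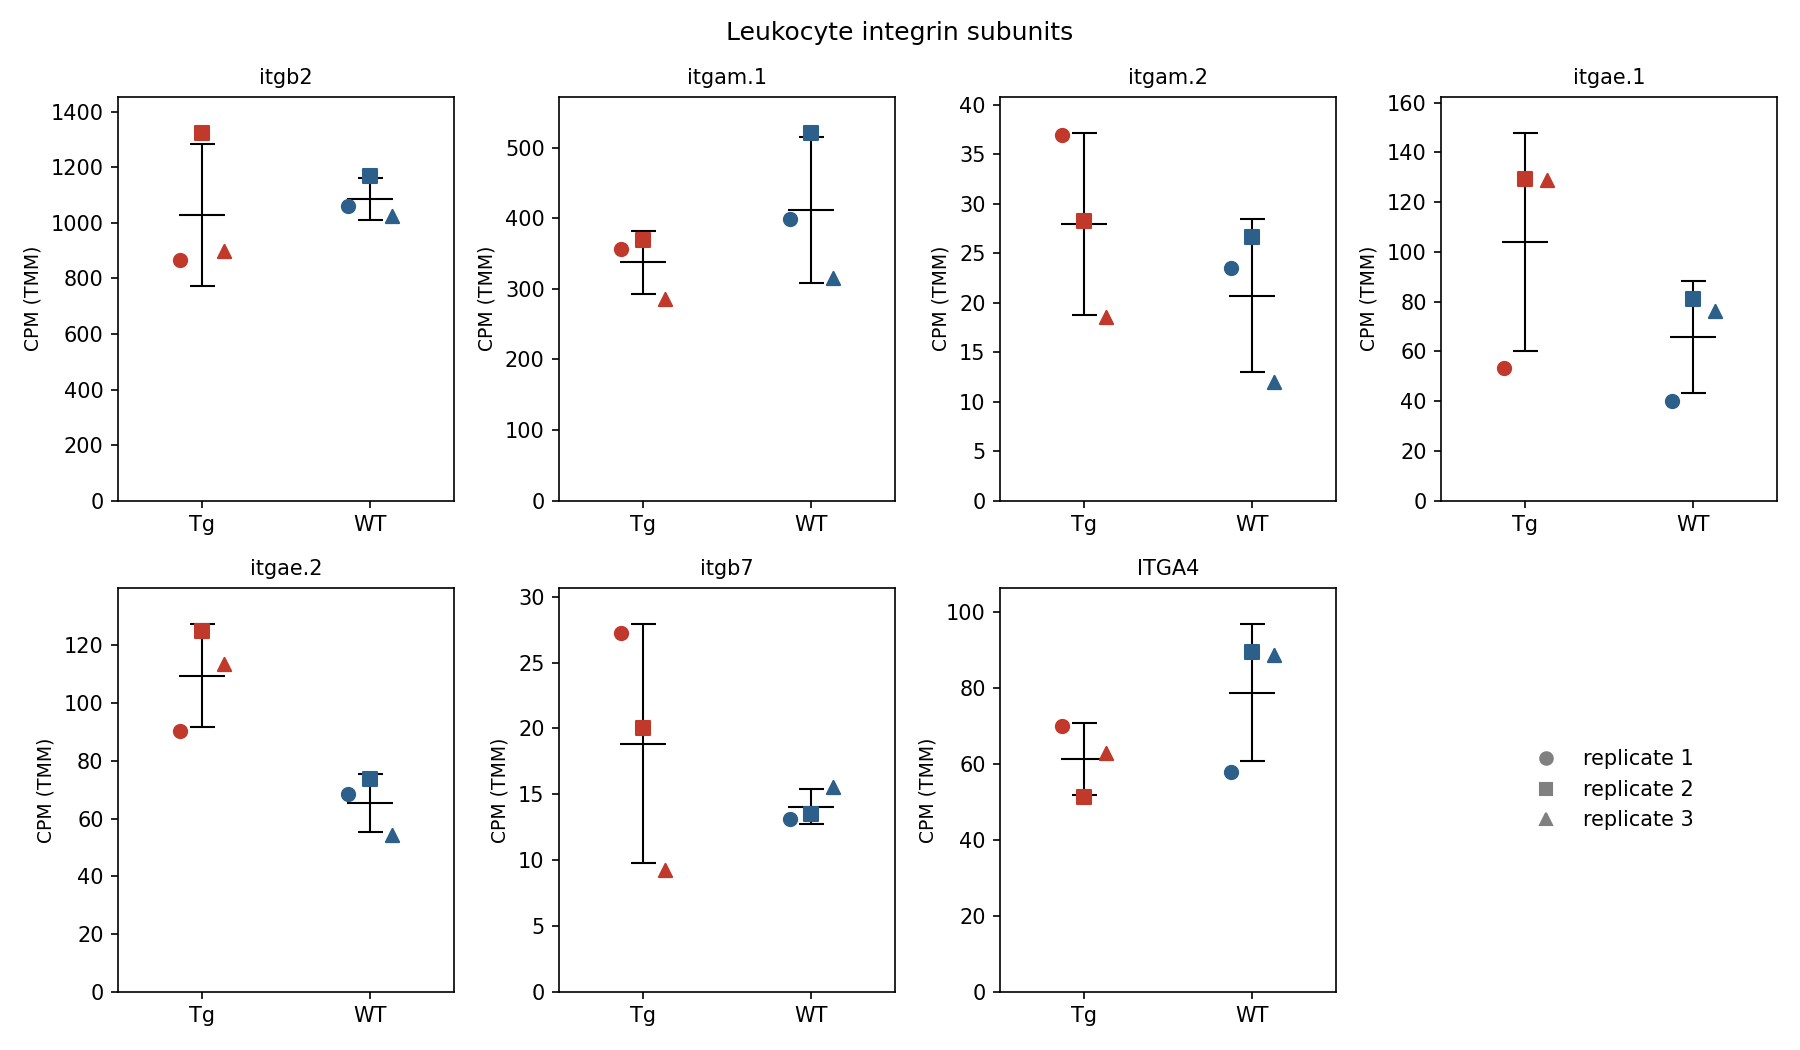
CPM (vertical axis, from 0) of the 7 leukocyte subunit genes in each Tg pool (left) and WT pool (right), with mean and SD as bars. The genotypes overlap in 6 of the 7, and for itgae.2 the Tg pools (90.3 to 125 CPM) sit above the WT pools (54.3 to 73.7 CPM). That is 14.3% of the 7, against 14.0% of all genes tested.

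The beta 1 subunit is the most widely shared partner of the matrix receptors, and its 4 rows differed from each other. The row ENSDARG00000053232 fell in Tg. It read 4.81, 5.74 and 5.39 CPM in Tg and 23.1, 13.1 and 23.9 CPM in WT. All Tg pools were level and the lowest WT pool, replicate 2, was still more than any of them. The means were 5.31 ± 0.467 CPM in Tg and 20.0 ± 6.03 CPM in WT (SD, n = 3 each), with a log2 fold change of -1.91 (standard error 0.27, edgeR adjusted p = 0.0448). The adjusted p was 0.0522 to 0.186 when any 1 pool was left out (0.0759 and 0.071 without replicate 1 of WT and of Tg, 0.0522 and 0.141 without replicate 2, 0.137 and 0.186 without replicate 3), and 0.0738 with limma-voom.

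A low row of the same name, ENSDARG00000022689, had 0, 34 and 32 counts in Tg and 193, 72 and 179 counts in WT. Its Tg pools were all below its WT pools but it did not pass (log2 fold change -2.62, standard error 1.26, edgeR adjusted p = 0.302). The other 2 rows carry nearly all ITGB1 counts. ENSDARG00000071863 was at 89.0, 104 and 115 CPM in Tg and 116, 145 and 157 CPM in WT, with the highest Tg pool just under the lowest WT pool (log2 fold change -0.44, standard error 0.16, edgeR adjusted p = 0.191). ENSDARG00000104484 overlapped, at 100.2, 91.8 and 88.5 CPM in Tg and 90.7, 79.5 and 77.4 CPM in WT (log2 fold change 0.18, standard error 0.12, edgeR adjusted p = 0.446). Its share of the ITGB1 counts was 51.7, 45.5 and 42.3% in Tg and 38.9, 33.3 and 29.6% in WT. The row that fell held 2.6 ± 0.2% in Tg and 8.2 ± 2.4% in WT (SD, n = 3 each). Summed over the 4 rows, ITGB1 was 202 ± 7.6 CPM in Tg and 244 ± 14.9 CPM in WT, with no overlap. How the authors' counting shared out reads that match several of these rows is not known, so each row's level is less certain than the sum.

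**Figure D4:**
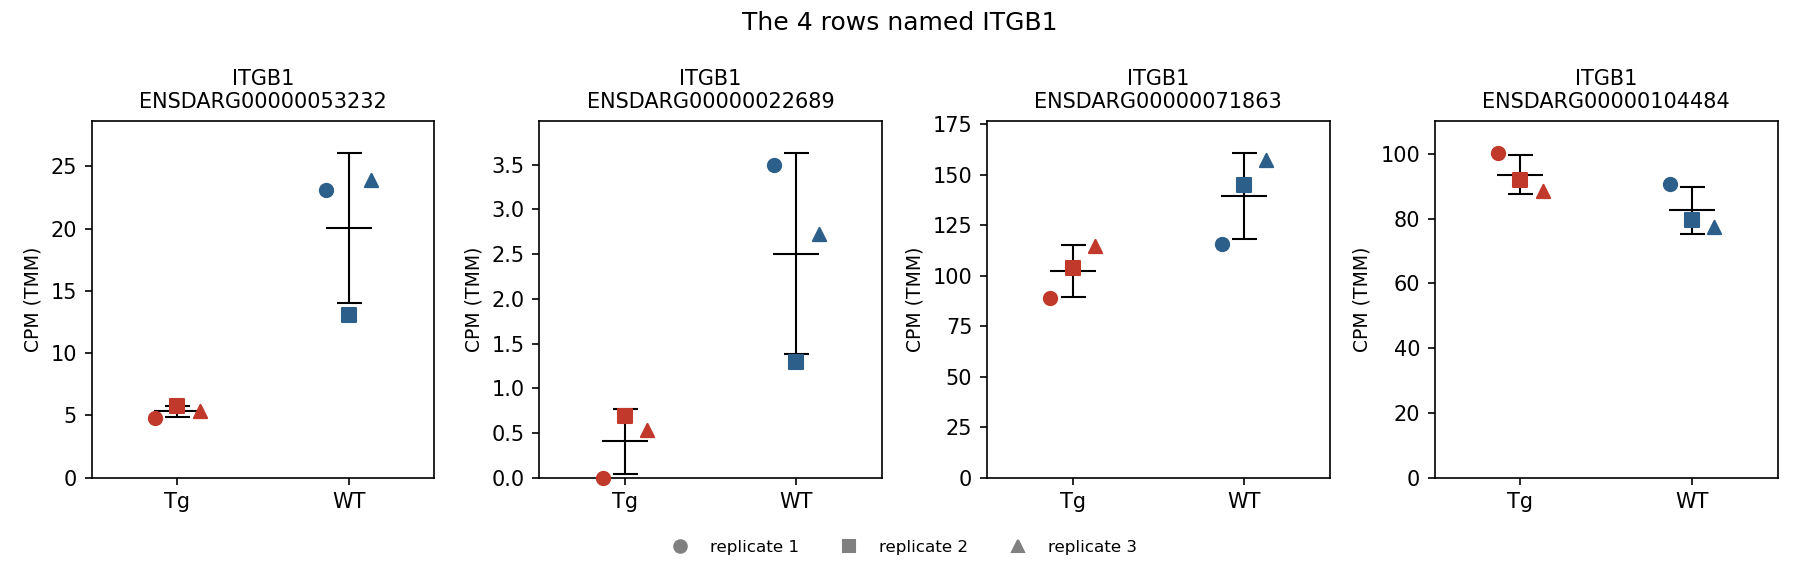
CPM (vertical axis, from 0, scaled per panel) of the 4 rows named ITGB1 in each Tg pool (left) and WT pool (right), with mean and SD as bars. ENSDARG00000053232 is at 4.81 to 5.74 CPM in Tg and 13.1 to 23.9 CPM in WT, and ENSDARG00000104484 overlaps between genotypes.

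ITGAV, ITGA5 and ITGA9, alpha subunits that bind fibronectin, vitronectin or tenascin, were higher in every Tg pool than in any WT pool, and none of them passed edgeR's test. They were 3 of the 11 fibronectin and RGD-binding subunits (27.3%, against 14.0% of all genes tested). For 4 of the 11 the Tg pools lay all below the WT pools (36.4%, against 14.1%). ITGAV, the vitronectin receptor subunit that also pairs with beta 3, read 161, 226 and 146 CPM in Tg and 122, 92.9 and 105 CPM in WT. Tg replicate 2 was the highest, and the log2 fold change was 0.74 (standard error 0.19, edgeR adjusted p = 0.116, DESeq2 adjusted p = 0.0164). ITGA5, the fibronectin receptor subunit, read 34.8, 30.3 and 31.8 CPM in Tg and 19.5, 20.0 and 26.1 CPM in WT (log2 fold change 0.56, standard error 0.16, edgeR adjusted p = 0.132). ITGA9, a tenascin receptor subunit of neutrophils and lymphatic vessels, read 6.71, 5.19 and 5.99 CPM in Tg and 1.69, 3.42 and 4.94 CPM in WT. WT replicate 3 came near the lowest Tg pool, and the log2 fold change of ITGA9 was 0.83 (standard error 0.42, edgeR adjusted p = 0.330). ITGA8, a subunit of mesenchymal cells that binds nephronectin in the kidney, went the other way, with 1.22, 0.364 and 0.317 CPM in Tg and 1.42, 1.77 and 2.01 CPM in WT (log2 fold change -1.45, standard error 0.70, edgeR adjusted p = 0.307). The beta subunits ITGB5, ITGB6 and ITGB8 overlapped between genotypes, with log2 fold changes of -0.17, -0.12 and -1.74 and edgeR adjusted p of 0.797, 0.965 and 0.374. ITGB5 was positive without WT replicate 2 (0.12), and ITGB6 without WT replicate 1 (0.38) or Tg replicate 2 (0.44).

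The 6 laminin-binding subunits had log2 fold changes between -1.66 and -0.13, of which that of ITGA3 (-0.13) turned positive without WT replicate 1 (0.04), Tg replicate 2 (0.13) or Tg replicate 3 (0.17), and none passed edgeR's test (0 higher and 2 lower at an unadjusted p under 0.05, 2 lower by DESeq2). Among other roles, these subunits join epithelial cells to the basement membrane. The itga3a gene read 7.76, 7.15 and 5.47 CPM in Tg and 29.8, 17.8 and 11.2 CPM in WT. Its Tg pools were all below its WT pools, and WT replicate 1 stood far above the rest. The log2 fold change was -1.53 (standard error 0.37, edgeR adjusted p = 0.103, DESeq2 adjusted p = 0.00213). ITGA6, a partner of beta 1 and beta 4, read 2.10, 1.94 and 2.09 CPM in Tg and 12.1, 4.37 and 2.96 CPM in WT, with the same pool on top (log2 fold change -1.66, standard error 0.55, edgeR adjusted p = 0.170, DESeq2 adjusted p = 0.0372). Its paralogue itga6b read 5.28, 7.90 and 9.50 CPM in Tg and 16.8, 10.2 and 9.89 CPM in WT (log2 fold change -0.70, standard error 0.32, edgeR adjusted p = 0.279). ITGA3, ITGB4 and itga6l overlapped between genotypes.

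Markers of the kidney tubule moved in the same pools. Of 21 tubule markers tested 2 fell, the sulfate transporter SLC13A1 and the sodium chloride transporter SLC12A3, and none rose (0 higher and 13 lower at an unadjusted p under 0.05, 0 and 12 of 23 by DESeq2). The Tg pools lay all below the WT pools for 13 of the 21 (61.9%, against 14.1% of all genes tested), and the median log2 fold change was -1.14. Their summed level was 1807, 2166 and 1812 CPM in Tg and 6353, 2562 and 2884 CPM in WT. Among the WT pools 18 of the 21 tubule markers and 4 of the 6 laminin-binding subunits were highest in replicate 1, against 34.2% of all genes tested. So were 10 of the 14 T and NK cell markers. The laminin-binding subunit ITGB4 was lowest in that pool, at 3.28 CPM against 5.29 and 6.83 CPM in WT replicates 2 and 3. On the tubule list, 3 rows named KCNJ1 had no count in any pool. Summed, the laminin-binding subunits were at 25.9, 23.0 and 23.6 CPM in Tg and 67.3, 42.0 and 34.9 CPM in WT. Without WT replicate 1 their median log2 fold change was -0.73, that of itga3a -1.09 and that of ITGA6 -0.84. The part of tubule cells in these values was not tested.

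**Figure D5:**
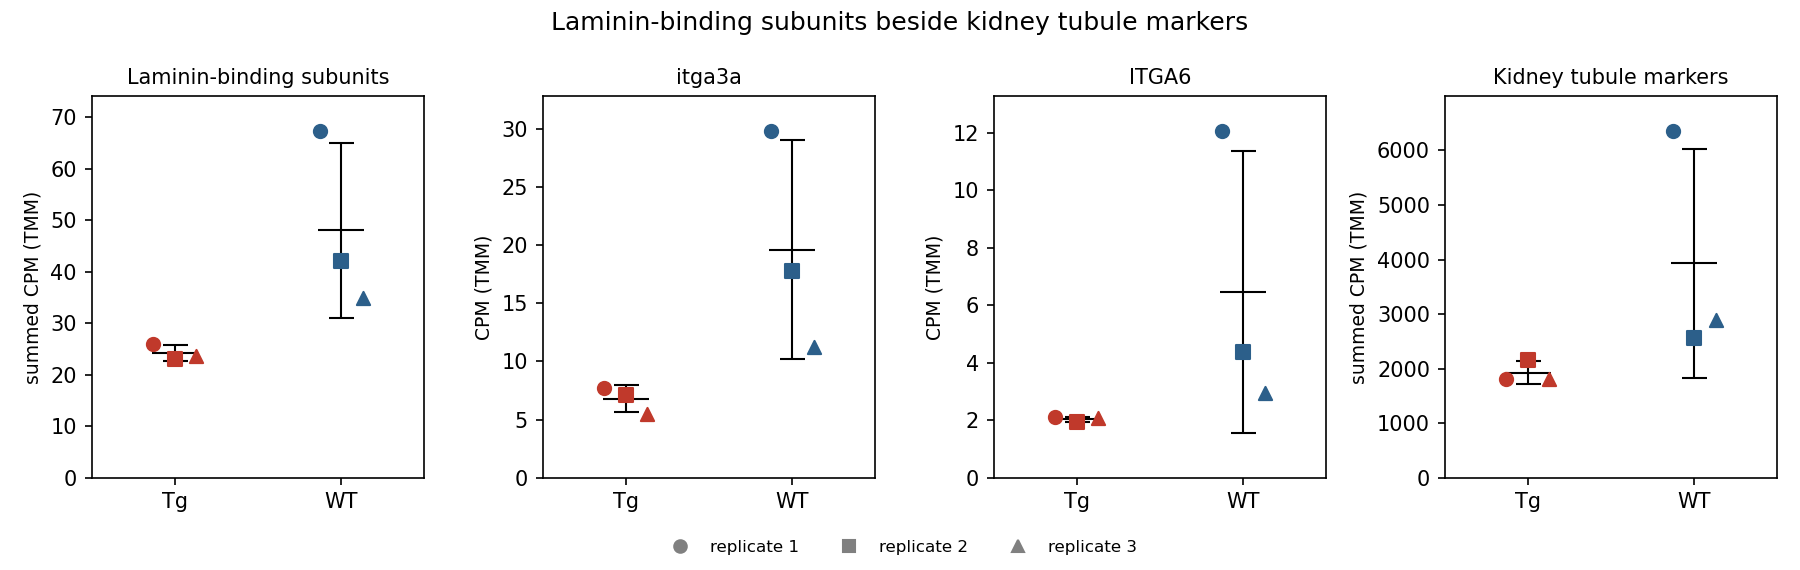
Summed CPM of the 6 laminin-binding subunits, CPM of itga3a and ITGA6, and summed CPM of the kidney tubule marker list (vertical axes, from 0) in each Tg pool (left) and WT pool (right), with mean and SD as bars. WT replicate 1 (circle) is the highest pool in all 4 panels, at 67.3 CPM for the laminin-binding subunits and 6353 CPM for the tubule markers.

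Of the 7 collagen-binding rows 5 were tested and none passed (0 higher and 2 lower at an unadjusted p under 0.05, 1 lower by DESeq2). ITGA1, a collagen IV receptor subunit of stromal cells and activated T cells, read 37.6, 51.6 and 35.6 CPM in Tg and 32.3, 38.3 and 38.6 CPM in WT, overlapping (log2 fold change 0.19, standard error 0.18, edgeR adjusted p = 0.606). ITGA11, a receptor subunit of fibroblasts for fibrillar collagen, was close to the detection limit. Its row ENSDARG00000036086 had 4, 0 and 0 counts in Tg and 12, 73 and 42 counts in WT (edgeR adjusted p = 0.186, DESeq2 adjusted p = 0.0409), and the other, ENSDARG00000007950, had 0, 0 and 8 counts in Tg and 0, 22 and 22 counts in WT and was not tested. ITGA10 of cartilage, ITGA2 and itga2.3 overlapped between genotypes, ITGA10 only through WT replicate 3. Their log2 fold changes were -1.59, -0.15 and -0.65, with edgeR adjusted p of 0.233, 0.907 and 0.724. ITGA2 was positive without WT replicate 3 (0.20) or Tg replicate 1 (0.12). The itga2.1 row had no count in any pool.

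Both genes of tail-binding proteins were lower in every Tg pool than in any WT pool, as were 14.1% of all genes tested. Neither passed edgeR's test, and itgb3bp was low, at 28, 8 and 40 counts in Tg. ITGB1BP1 (ICAP-1), which binds the tail of beta 1 and holds it inactive, read 26.5, 25.4 and 33.1 CPM in Tg and 33.5, 43.4 and 40.2 CPM in WT, the highest Tg pool lying just under the lowest WT pool (log2 fold change -0.46, standard error 0.16, edgeR adjusted p = 0.190). The itgb3bp gene, known in humans as the centromere protein CENP-R as well as a binder of beta 3, read 0.525, 0.162 and 0.668 CPM in Tg and 1.83, 2.01 and 4.10 CPM in WT (log2 fold change -2.54, standard error 0.70, edgeR adjusted p = 0.125, DESeq2 adjusted p = 0.00754).

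The genes that switch integrins on and tie them to actin were tested beside the receptors. Of 40 rows on a list of activators and adaptors none rose or fell by edgeR's test, and the median log2 fold change was -0.01. At an unadjusted p under 0.05, 2 were higher, against 9.07% of all genes, and 3 lower, against 10.8%. By DESeq2 0 were higher and 3 lower (7.5%, against 6.55% of all genes). The Tg pools lay all above the WT pools for 2 (5%, against 14.0% of all genes tested). They lay all below for 3 (7.5%, against 14.1%). TLN1 (talin, which opens integrins by binding the beta tail) was at 933, 1043 and 1025 CPM in Tg and 837, 966 and 899 CPM in WT, overlapping. The 2 rows of FERMT3, the kindlin of blood cells, had log2 fold changes of 0.07 and 0.22 (edgeR adjusted p = 0.824 and 0.399). RASGRP2 (ENSDARG00000062328), which activates Rap1 upstream of talin in platelets, read 84.3, 93.0 and 94.2 CPM in Tg and 70.4, 70.4 and 69.6 CPM in WT, all Tg pools above all WT pools (log2 fold change 0.37, standard error 0.10, edgeR adjusted p = 0.131).

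The smallest adjusted p on that list belonged to RSU1, which sits in the complex of integrin-linked kinase, PINCH and parvin. It read 14.4, 15.6 and 16.3 CPM in Tg and 29.0, 28.9 and 26.6 CPM in WT. The pools of each genotype were close together, and the log2 fold change was -0.87 (standard error 0.13, edgeR adjusted p = 0.0507, DESeq2 adjusted p = 1.71e-05). A parvin of the same complex, PARVA (ENSDARG00000035629), was at 4.66, 3.66 and 3.84 CPM in Tg and 8.02, 7.87 and 8.82 CPM in WT, again without overlap (log2 fold change -1.02, standard error 0.24, edgeR adjusted p = 0.101, DESeq2 adjusted p = 0.0034). The other parvin rows, PARVA (ENSDARG00000043710), PARVB and parvg, overlapped, with log2 fold changes of -0.17, 0.29 and -0.19. So did the PINCH genes lims1 and lims2, at -0.13 and 0.48. ILK itself overlapped between genotypes, with a log2 fold change of -0.29 (edgeR adjusted p = 0.323). Also lower by DESeq2 was PTK2B (ENSDARG00000039577), which overlapped (log2 fold change -1.84, edgeR adjusted p = 0.190, DESeq2 adjusted p = 0.0378). The other PTK2B row, ENSDARG00000022841, had all Tg pools above all WT pools (log2 fold change 0.41, edgeR adjusted p = 0.185, DESeq2 adjusted p = 0.139).

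Of 31 ligand genes tested none rose and 1 fell (0 higher and 3 lower at an unadjusted p under 0.05, 0 and 2 by DESeq2), with a median log2 fold change of -0.32. Among the WT pools 15 of the 31 were highest in replicate 3, against 6694 of all 20123 genes tested. The genes of fibrinogen, the ligand of alpha IIb with beta 3, were found almost only in that pool. The fga row had 23, 12 and 57 counts in Tg and 0, 16 and 1860 counts in WT, and FGB had 14, 0 and 62 counts in Tg and 107, 7 and 1395 counts in WT. FGG, which was not tested, had 0 counts in each Tg pool and 0, 0 and 1634 counts in WT. The gene that fell was LAMB1 (ENSDARG00000045524), a laminin beta chain and so part of the ligand of the laminin-binding receptors. It read 10.7, 7.40 and 8.21 CPM in Tg and 33.6, 25.9 and 40.1 CPM in WT. The log2 fold change was -1.92 (standard error 0.23, edgeR adjusted p = 0.0345), and here WT replicate 3 and not replicate 1 was the highest pool. No ligand gene passed when any WT pool, Tg replicate 2 or Tg replicate 3 was left out (0 lower in each), while 1 was lower without Tg replicate 1. The second LAMB1 row, ENSDARG00000101209, was level at 30.9 ± 7.50 CPM in Tg and 31.4 ± 7.15 CPM in WT (SD, n = 3 each). The gene of E-cadherin, which alpha E with beta 7 binds in mammals, was cdh1 at 29.9, 24.1 and 21.4 CPM in Tg and 87.5, 34.0 and 39.9 CPM in WT (edgeR adjusted p = 0.171, DESeq2 adjusted p = 0.0266). The 2 fibronectin rows, FN1, overlapped between genotypes (edgeR adjusted p = 0.881 and 0.429).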

How the data were processed

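RNA of KM cells was compared between Tg(drl:hoxa9;hsp70:meis1) and WT zebrafish, 3 pools each. Per the methods of the study, the authors trimmed reads with Cutadapt 1.9, aligned them with HISAT2 2.0.4 to GRCz11 and assembled transcripts with StringTie 1.3.4d. The authors deposited raw counts per gene, whole numbers without normalization. The sources used here name neither the step that made them nor its strand setting, and reads of near-identical paralogues may be split between rows. Names came from a table of gene symbols, which covers 28988 of the 32057 rows.

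Genes were kept by filterByExpr (20123 left), scaled by TMM and tested with the quasi-likelihood test of edgeR 4.0.16 in R 4.3.3, over the whole table. DESeq2 1.42.0, limma-voom (limma 3.58.1), other scalings, no filter, the replicate number as a block and leaving out each pool were run as alternatives. Standard errors of log2 fold changes follow from the F statistic. Members and lists were chosen with earlier results of these data known. Values in every pool are given for itga2b and ITGB3, members past either test, the member with the highest CPM in each group, and members with at least 1 CPM, a log2 fold change of at least 0.5 in size and no overlap. The other ITGB1 rows, the remaining leukocyte subunits, and f13a1b, F13A1, NFE2, mpl, gp9, GP1BB, cd8a, TOX, lck, fga, FGB, FGG, TLN1, FERMT3, ILK and FN1 were named after their values were seen. So were the second PARVA row, PARVB, parvg, lims1, lims2, both PTK2B rows, lyz and npsn. On simulated counts for this comparison (19328 genes tested), the quasi-likelihood test recovered 7% of genes changed 2-fold and 66% of those changed 4-fold, with 4 false among 77 calls. On the same simulated counts DESeq2 recovered 37% and 93%, with 82 false among 212 calls. The share of false calls depends on how many genes were changed, which were few, so it is not the share in the real counts. The changes were put only into genes above a set mean level, so these recoveries do not cover low members such as ITGA8, ITGB8 and ITGA11.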

Additional observations from a re-analysis of the deposited data

How the results depend on the processing

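The quasi-likelihood call of ITGB3 (ENSDARG00000045070) held with DESeq2, limma-voom, both other scalings and no filter, and that of ITGB1 (ENSDARG00000053232) with all of these except limma-voom. Over all genes tested (45 higher and 75 lower), DESeq2 gave 647 and 1430, limma-voom 25 and 25, and the replicate block 0 and 1. Leaving out 1 pool gave 0 to 28 higher and 0 to 60 lower. Of the subunit genes (1 and 1), DESeq2 gave 4 and 4, limma-voom 1 and 0, and leaving out 1 pool 0 to 1 higher and 0 lower. Of the activators and adaptors (0 lower), 1 was lower with RLE size factors and with library size only, and 3 with DESeq2. Of the ligands (1 lower), DESeq2 gave 2 and leaving out 1 pool 0 to 1. The median log2 fold change of the collagen-binding subunits (-0.65) was -1.15 with DESeq2, -0.79 with limma-voom, -1.12 without a filter, -0.81 with the replicate block and -1.39 to -0.71 without 1 pool. DESeq2, the fit without a filter and those without WT replicate 1 or any Tg replicate include the ITGA11 row that was otherwise not tested. On the 5 rows tested with all pools, their median without 1 pool was -1.27 (Tg replicate 1 left out) to -0.19 (WT replicate 1 left out). That of the fibronectin and RGD-binding subunits (-0.17) was -0.44 with limma-voom, -0.44 with the replicate block and -0.39 to -0.26 without 1 pool, and that of the laminin-binding subunits (-1.02) -1.28 to -0.73 without 1 pool. No scaling moved the median of all genes by over 0.1, and the cause of the other moves was not tested.

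Replicate numbers are shared between genotypes, but nothing states that they pair the pools. Pools of the same number deviated from their group means with correlations of -0.09, -0.14 and 0.13 over genes, so that only number 3 reached 0.1. Pools of different number had correlations of -0.18 to 0.25, the highest being that of Tg replicate 1 with WT replicate 2. With the number as a replicate block no subunit gene passed (0 higher and 0 lower, ITGB3 at an adjusted p of 0.0811 and ITGB1 at 0.140), and of the ligands 0 were lower.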
